A study of Mus musculus with 29 samples.

Results

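Microglia that had grown back after a drug-induced loss were compared with microglia that had never been removed, in mice that received no bacterial stimulus. The comparison holds 10 of the 29 libraries of the series, 5 named PP and 5 named PBP, chosen by their labels alone. All mice were male C57BL/6J animals given a first intraperitoneal injection at 10 weeks of age and sampled at 15 weeks. PP mice received saline, then the vehicle by gavage, then saline again 5 weeks after the first injection. PBP mice received the same injections but were gavaged from 1 week after the first one with BLZ945, an inhibitor of the receptor CSF1R, at 169 mg/kg per day for 5 days. Sampling followed the second injection by 3 h, and live brain cells high in CD11b, intermediate in CD45 and negative for Ly6C were sorted for bulk RNA sequencing. The labels give 1 sample per library and nothing more about the animals, so a p-value here speaks of the spread between samples, which may be partly technical.

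Microglia are the resident macrophages of the brain and depend on CSF1R signalling, through the ligands CSF1 and IL-34, to survive. When the receptor is blocked most of them die, and after the inhibitor is withdrawn the niche is refilled by proliferation of the microglia that remain. Resting microglia are known by a set of surface and secreted products such as P2RY12, TMEM119 and CX3CR1 and by transcription factors such as PU.1 (gene Spi1) and SALL1. Macrophages that enter the brain from the blood take up part of that programme but keep low Sall1 and high levels of genes such as Apoe and Ms4a7.

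Total counts per library lay between 7397399 and 8606743 in PP and between 5745164 and 11198323 in PBP. The PP libraries were all sorted on day 5 and PBP replicates 1 to 4 on day 4, on a MoFlo Astrios sorter, whereas PBP replicate 5 was sorted on day 3 on a MoFlo XDP. Day numbers give the order of the recorded sorting dates in the series and need not be consecutive days. No PP library therefore shared a sorting day with a PBP library. PBP replicate 5 also had the lowest RNA quality number, 7.4 against 8.6 to 9.1 in the other 9 libraries. On the first principal component, which carried 32.5% of the variance, it lay at 110.3 and the others between -44.33 and 11.05. Results are given with and without this library.

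Few genes were called different between the repopulated and the original cells. Of 16632 genes tested with edgeR's quasi-likelihood test, 48 were called higher and 40 lower in PBP at an adjusted p under 0.05 (Benjamini-Hochberg over all genes), which is 0.289% and 0.241% of the genes and 0.529% together. At least 2-fold differences made up 34 of the rises and 19 of the falls. In the same test 1991 genes had an unadjusted p under 0.05, so the number of calls is not a count of all genes that differ. The median log2 fold change over all genes was 0.04. For 37 of the 48 and 35 of the 40 called genes the values of the PP and PBP libraries, in counts scaled to library size (CPM), did not overlap, as was so for 414 of all genes tested (2.49%). Without PBP replicate 5, 38 genes were called higher and 28 lower (0.23% and 0.169% of 16532), of which 27 and 22 were among the genes called with it. At least 2-fold differences were then 22 of the rises and 13 of the falls. Each of the 88 genes kept its direction without that library. Of the 21 rises that lost their call without it, 15 had their highest PBP value in replicate 5.

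Sorting day could not be separated from depletion within these 10 libraries. A fit with day as a term takes the difference between days 4 and 5 from the 4 PL libraries (saline, vehicle, then LPS), 2 of which were sorted on each day. PL replicate 3, of day 5, had the lowest RNA quality number (6.5) and RNA concentration (0.59 ng per microlitre) of the series, so RNA quality is mixed into that difference. Day 3 held only PBP replicate 5 and the PBL libraries. In the fit with day, PBP replicate 5 therefore sets the day 3 term and adds nothing to the fold change of PBP against PP. In that fit 6 genes were called higher and 5 lower (0.0361% and 0.0301%, 0.0661% together). Axl and St8sia6 among the rises and Bank1 and Tmem44 among the falls were called in both fits. All 48 and all 40 genes kept their sign, with medians of 1.5 against 1.54 for the rises and -0.81 against -0.96 for the falls. Single genes moved further: 16 of the 88 fold changes became smaller by over 1.5 times, such as Fam13c (3.36 to 0.45) and Actg1 (-0.60 to -0.09), and 6 became larger by over 1.5 times, such as Htra3 (1.71 to 3.12). Calls below are those of the fit without day unless stated.

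**Figure D1:**
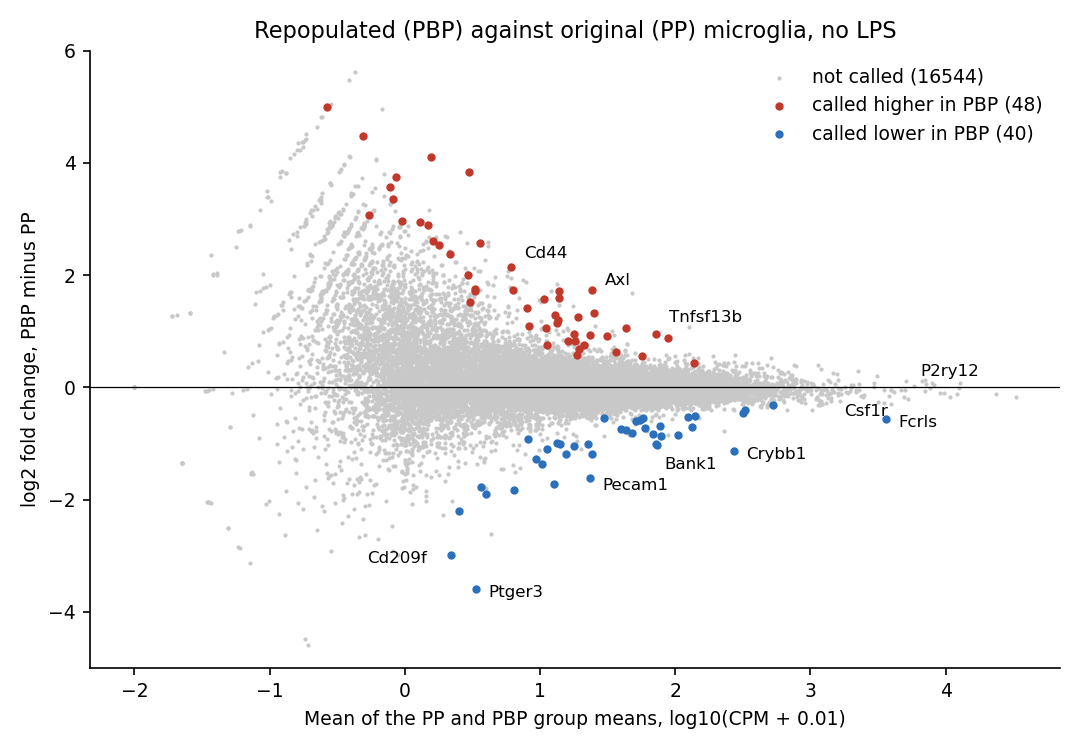
Log2 fold change of each gene (PBP minus PP, vertical axis) against its mean level (log10 of CPM + 0.01, horizontal axis); red and blue points are genes called higher and lower, and 1 gene lies outside the vertical range. The 48 rises are mostly at low or middle levels, while falls include strongly expressed genes such as Crybb1 and Fcrls, and P2ry12 and Csf1r lie near 0.

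Genes of resting microglia included 3 falls and no rise. Of 33 surface and secreted genes of homeostatic microglia tested, 3 were called lower (9.09%, against 0.241% of all genes) and 30 were not called, with a median log2 fold change of -0.04 against 0.04 for all genes. Together these genes held between 154000 and 175000 CPM in PP and between 126000 and 171000 CPM in PBP, the lowest PBP value belonging to replicate 5. P2ry12, the ADP receptor that directs microglial processes, was at 12500, 11000, 11400, 12400 and 9920 CPM in PP and at 11100, 10500, 11300, 10500 and 7460 CPM in PBP (log2 fold change -0.17, SE 0.11, adjusted p = 0.575). The ranges overlapped, and replicate 5 was the lowest of the 10 libraries. Tmem119, a transmembrane protein specific to microglia in the brain, differed by 0.11 (SE 0.11, adjusted p = 0.766). Cx3cr1, the fractalkine receptor, differed by -0.02 (SE 0.11, adjusted p = 0.98).

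Csf1r, the gene of the drug's target, was at 5560, 6240, 5630, 6190 and 5650 CPM in PP and at 4780, 6090, 6140, 7860 and 4760 CPM in PBP. The PBP libraries spread on both sides of the PP range, and the log2 fold change was 0.02 (SE 0.13, adjusted p = 0.98). None of 22 genes of CSF1R ligands, receptor and survival was called, with a median of -0.05.

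None of 20 transcription factors of microglial identity was called either, with a median of 0.13. Sall1, which keeps microglia apart from other macrophages, was between 408 and 485 CPM in PP and between 376 and 464 CPM in PBP (-0.06, SE 0.16, adjusted p = 0.928). With day in the fit its fold change was 0.55 (SE 0.28, adjusted p = 0.463), on the other side of 0 and again not called. Spi1, which encodes PU.1, was at 62.5 to 311 CPM in PP and 61.4 to 314 CPM in PBP, a spread within each group at which a difference of the fitted size was not detectable (0.14, SE 0.42, adjusted p = 0.943).

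**Figure D2:**
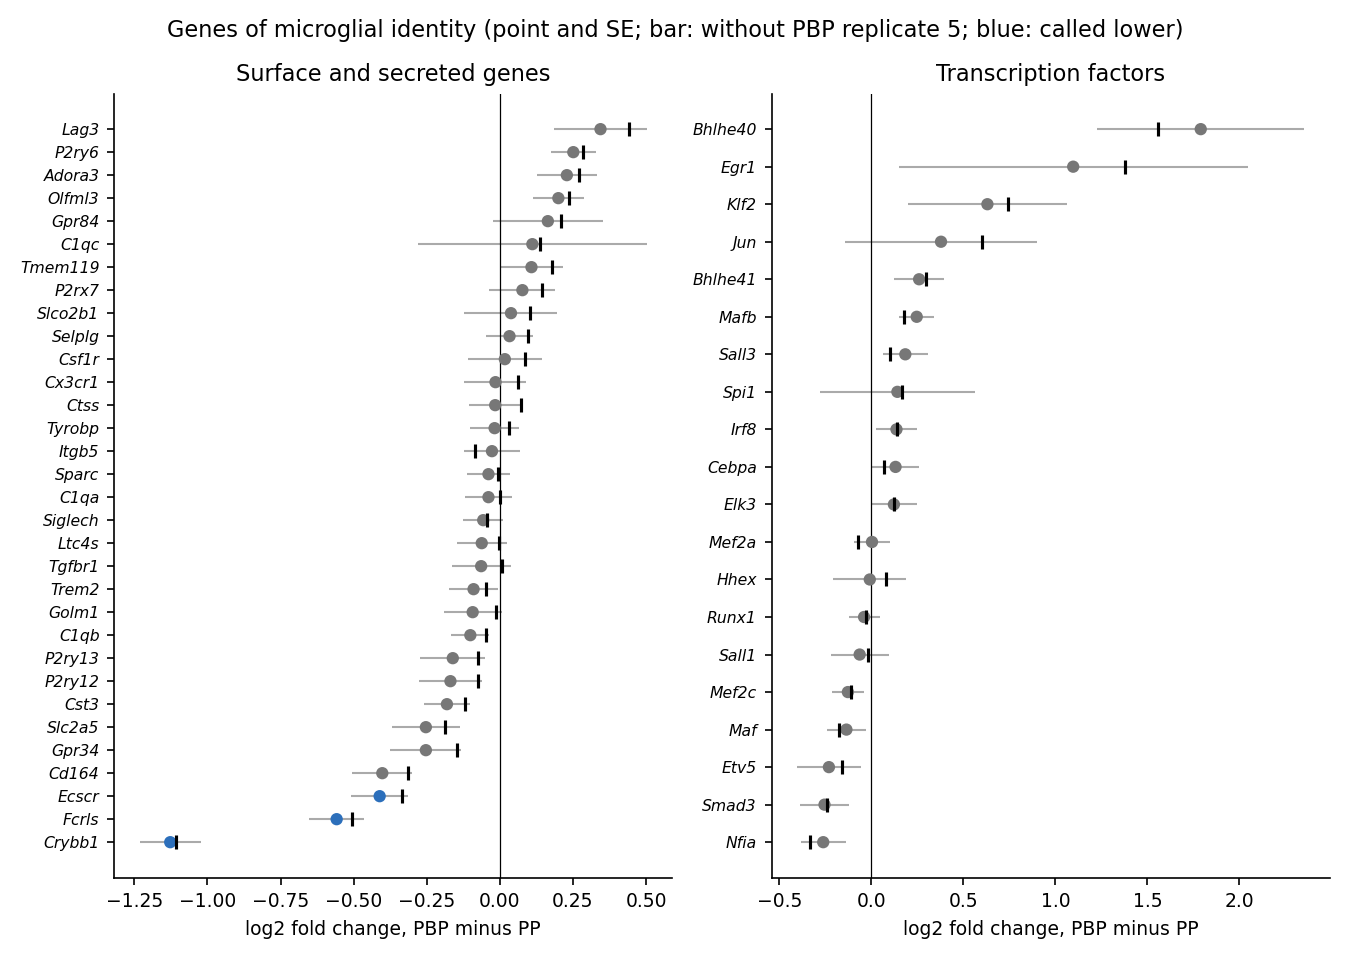
Log2 fold change (PBP minus PP, horizontal axis) with its SE for 32 of the 33 surface and secreted genes and the 20 transcription factors of microglial identity; black bars mark the value without PBP replicate 5. Crybb1, Fcrls and Ecscr, in blue, are the 3 called genes, and no transcription factor was called.

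The 3 homeostatic genes that fell were lower in each PBP library than in any PP library. Crybb1 (ENSMUSG00000029343, chromosome 5), a beta-crystallin of the lens that mature microglia also express, was at 370, 366, 371, 353 and 404 CPM in PP and at 166, 175, 169, 183 and 161 CPM in PBP. The groups lay far apart and each was narrow, with a log2 difference of -1.13 (SE 0.105, adjusted p = 2.81e-08), the smallest p among all genes. With day in the fit the change was -0.83 (SE 0.19, adjusted p = 0.0637). Fcrls, a scavenger receptor related to the Fc receptors and a marker of mouse microglia, was at 4450, 4180, 4410, 4710 and 3800 CPM in PP and at 2930, 2910, 3260, 3050 and 2500 CPM in PBP (-0.56, SE 0.09, adjusted p = 0.00131). All PBP libraries were below all PP libraries. Ecscr, a small membrane protein of endothelial cells and microglia, went from 339 to 428 CPM in PP to 220 to 318 CPM in PBP, again without overlap (log2 difference -0.41, SE 0.10, adjusted p = 0.0389). Its call was lost in 6 of 10 fits that left out 1 library each (adjusted p up to 0.134), among them the one without PBP replicate 5 (-0.34, adjusted p = 0.133), and kept without PP replicate 5 or PBP replicate 1, 3 or 4. Its value with day in the fit was -0.24 (adjusted p = 0.627).

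The promoters of the genes with the smallest p-values in each direction are shown as the sequence context of the clearest differences, the 250 bases before the annotated start on the gene's own strand. They come from RefSeq on GRCm38.p6, which is not the build of the counts (GRCm39). Capitals mark GAGGAAG, a core letter string bound by PU.1, and CAGAC, found in SMAD binding elements, on either strand. GAGGAAG occurred in 10.6% and CAGAC in 42.2% of 32851 promoters of this length. In 59 promoters matched to called rises the shares were 16.9% and 45.8%, and in 40 matched to called falls 15.0% and 52.5%. Crybb1 and Bank1 were the falls and Axl and Cd72 the rises with the smallest p-values.
Crybb1, chr5:112255570-112255819, plus strand: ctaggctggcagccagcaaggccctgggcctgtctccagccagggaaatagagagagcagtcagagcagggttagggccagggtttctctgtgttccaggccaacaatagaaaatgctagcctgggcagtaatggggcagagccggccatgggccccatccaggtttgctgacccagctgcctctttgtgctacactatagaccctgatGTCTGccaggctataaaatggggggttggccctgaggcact
Bank1, chr3:136326067-136326316, minus strand: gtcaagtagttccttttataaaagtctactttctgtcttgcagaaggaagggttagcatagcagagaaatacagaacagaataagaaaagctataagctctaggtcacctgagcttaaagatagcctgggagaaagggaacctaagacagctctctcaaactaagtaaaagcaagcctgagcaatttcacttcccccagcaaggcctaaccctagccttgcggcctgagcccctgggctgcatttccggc
Axl, chr7:25788734-25788983, minus strand: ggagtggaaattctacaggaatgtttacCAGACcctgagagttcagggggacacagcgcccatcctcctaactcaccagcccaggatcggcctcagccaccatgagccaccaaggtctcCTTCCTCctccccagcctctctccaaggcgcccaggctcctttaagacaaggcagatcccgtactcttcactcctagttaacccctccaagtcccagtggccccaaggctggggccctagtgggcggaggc
Cd72, chr4:43454627-43454876, minus strand: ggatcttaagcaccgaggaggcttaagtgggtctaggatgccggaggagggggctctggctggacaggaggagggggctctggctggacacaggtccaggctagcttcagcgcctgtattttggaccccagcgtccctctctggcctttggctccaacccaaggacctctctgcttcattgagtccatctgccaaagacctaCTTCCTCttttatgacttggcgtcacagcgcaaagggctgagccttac
GAGGAAG was found once each in the Axl and Cd72 promoters, and CAGAC once each in those of Crybb1 and Axl. The Bank1 window holds neither string.

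Bank1 and Cd79b, both best known from B lymphocytes, were among the genes that fell. Bank1 (ENSMUSG00000037922, chromosome 3), a scaffold protein of B-cell receptor signalling, was at 108, 87.9, 105, 96.3 and 88.8 CPM in PP and at 53.3, 45.1, 46.4, 52.2 and 44.0 CPM in PBP (-1.01, SE 0.13, adjusted p = 8.31e-05). It stayed called with day in the fit (-1.22, adjusted p = 0.049). Cd79b (ENSMUSG00000040592, chromosome 11), a signalling chain of the B-cell receptor, was at 83.4 to 114 CPM in PP and 39.2 to 54.4 CPM in PBP (-1.02, SE 0.17, adjusted p = 0.000994). In both genes all PBP libraries were below all PP libraries. Of 16 lymphocyte markers only Cd79b and Ighm were high enough to be tested, and Ms4a1, Cd3e, Cd3g, Cd8a, Gzma, Gzmb, Ncr1 and Trbc2 had 0 counts in all 10 libraries. Ighm differed by -0.40 (adjusted p = 0.15). Other genes known from B cells, Cd72 and Tnfsf13b, rose and are described with the rises.

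Other falls concerned receptors and adhesion molecules. Pecam1 (ENSMUSG00000020717, chromosome 11), the adhesion molecule CD31 of endothelium and leukocytes, was at 36.1, 32.1, 39.1, 38.1 and 31.1 CPM in PP and at 17.1, 10.8, 8.46, 15.2 and 5.44 CPM in PBP (-1.61, SE 0.25, adjusted p = 0.000442). The 6 other tested markers of endothelial cells and pericytes were not called, and the summed level of the whole list was 750 to 860 CPM in PP and 614 to 835 CPM in PBP. Most of that sum was Bsg, at 703 to 808 CPM in PP and 594 to 814 CPM in PBP. The other 6 markers, Pecam1 included, summed to 34.3 to 48.8 CPM in PP and 17.4 to 26.4 CPM in PBP. Most of this remainder in PP was Pecam1 itself. Kdr overlapped, at 0.539 to 11.7 CPM in PP and 6.05 to 11 CPM in PBP, and Flt1, Itm2a, Rgs5 and Vtn were at 2.33 CPM or less in each library. Slamf1, a self-binding receptor of leukocytes, was at 10.8 to 17.4 CPM in PP and 4.17 to 8.22 CPM in PBP (-1.28, SE 0.18, adjusted p = 9.17e-05). Ptger3, the EP3 receptor for prostaglandin E2, was at 6.57, 4.59, 7.09, 7.91 and 4.66 CPM in PP and at 0.432, 0.257, 0.537, 0.626 and 0.621 CPM in PBP. With a log2 difference of -3.59 (SE 0.63, adjusted p = 0.00193), it was the deepest fall among the called genes, and its ranges did not overlap. With day in the fit the value was -2.31 (adjusted p = 0.389).

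Enzymes, transporters and other products also fell. Npl, the lyase that breaks down sialic acid, was at 90.3 to 114 CPM in PP and 37.0 to 67.6 CPM in PBP (-0.87, SE 0.14, adjusted p = 0.000669). Abcg3, a member of the ABC transporter family, had a log2 difference of -1.82 (SE 0.39, adjusted p = 0.0151), Apobec2, of the cytidine deaminase family, one of -1.78 (adjusted p = 0.0182) and Tmem44, a transmembrane protein, one of -1.72 (adjusted p = 0.000442). Tmem44 stayed called with day in the fit. Rgs7bp, which anchors regulators of G-protein signalling, had a difference of -1.04 (adjusted p = 0.0124), and Nid2, the basement membrane protein nidogen 2, one of -1.01 (adjusted p = 0.0389). Of 10 fits that left out 1 library each, Nid2 lost its call in 7 (adjusted p up to 0.116), all but those without PP replicate 2 and PBP replicates 4 and 5. Apobec2 lost it in 5 (up to 0.0647), those without PP replicates 1 and 3 and PBP replicates 1, 2 and 3, and Rgs7bp without PBP replicate 2 (-0.94, adjusted p = 0.06). Ninj1, a protein of plasma membrane rupture named here after its values were seen, was at 116 to 148 CPM in PP and 68.0 to 84.8 CPM in PBP (-0.85, SE 0.12, adjusted p = 9.17e-05).

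Axl led the rises. Axl (ENSMUSG00000002602, chromosome 7) encodes a receptor tyrosine kinase of the TAM family that recognises dying cells through the ligand GAS6. It was at 10.2, 14, 11.3, 9.47 and 11.1 CPM in PP and at 41.6, 41.5, 31.8, 46.7 and 25.2 CPM in PBP. All PBP libraries were above all PP libraries, with replicate 5 the lowest of them. The log2 fold change was 1.74 (SE 0.24, adjusted p = 8.31e-05), and 2.56 (SE 0.42, adjusted p = 0.00739) with day in the fit. The related receptors Mertk (0.07, adjusted p = 0.83) and Tyro3 (0.62, adjusted p = 0.83) and the ligands Gas6 (-0.39, adjusted p = 0.27) and Pros1 (0.06, adjusted p = 0.93) were not called. In the list of 19 TAM receptor and phagocytosis genes Axl was the 1 rise and Mrc1 the 1 fall, with a median of -0.04. Each is 5.26% of the list, against 0.289% and 0.241% of all genes called higher and lower.

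Further rises concerned surface receptors and their ligands. Cd44 (ENSMUSG00000005087, chromosome 2), the hyaluronan receptor, was at 1.98, 1.08, 3.67, 1.8 and 2.65 CPM in PP and at 11.6, 12.6, 8.6, 8.94 and 8.23 CPM in PBP (2.15, SE 0.40, adjusted p = 0.00359). Hcar2, the receptor for niacin and the ketone body beta-hydroxybutyrate, was at 11.6 to 16.9 CPM in PP and 23.7 to 55.2 CPM in PBP (1.32, SE 0.23, adjusted p = 0.00276). Neither gene's groups overlapped. Tnfsf8, the ligand of CD30, was higher by a log2 difference of 1.57 (SE 0.37, adjusted p = 0.0389), and Fcgr4, a receptor for IgG, by 0.82 (SE 0.18, adjusted p = 0.0268). The Fcgr4 groups overlapped, at 9.36 to 15.9 CPM in PP and 13.6 to 31.7 CPM in PBP. Leaving out 1 library at a time ended the Tnfsf8 call in 8 of 10 fits (adjusted p up to 0.111), all but those without PBP replicates 4 and 5, and the Fcgr4 call in 5 (up to 0.103), those without PP replicates 1, 3 and 4 and PBP replicates 1 and 2. Tnfsf8 was at 2.51 with day in the fit (adjusted p = 0.175). P2ry2, a receptor for ATP and UTP, had 0 counts in PP and 0.129 to 0.941 CPM in PBP. Against the level of 3 counts over the PP group, 0.0756 CPM, it was at least 6.6-fold higher in PBP (adjusted p = 0.00413).

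Some more rises of this kind were picked out after their values were seen. Cd72 (ENSMUSG00000028459, chromosome 4), a C-type lectin that restrains B-cell receptor signalling, was at 25.0 to 33.3 CPM in PP and 46.1 to 66.3 CPM in PBP (1.05, SE 0.16, adjusted p = 0.000224). Tnfsf13b, the B-cell survival factor BAFF, was at 42.4 to 61.4 CPM in PP and 81.6 to 118 CPM in PBP (0.94, SE 0.15, adjusted p = 0.000442). Ly9, of the same receptor family as Slamf1, was at 51.3 to 83.3 CPM in PP and 65.6 to 146 CPM in PBP (0.87, SE 0.16, adjusted p = 0.00288). Its groups overlapped through PBP replicate 5, the lowest PBP library.

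Genes of signalling and modification inside the cell rose as well. St8sia6, which adds sialic acid to glycans, was at 8.05, 10.5, 12.9, 12.7 and 12.6 CPM in PP and at 30.1, 27.6, 33.7, 19.8 and 24.2 CPM in PBP (1.25, SE 0.19, adjusted p = 0.000336). It stayed called with day in the fit (2.08, adjusted p = 0.00739). Arhgap15, which switches off the GTPase Rac, was at 5.8 to 8.18 CPM in PP and 16.8 to 24.5 CPM in PBP (1.60, SE 0.29, adjusted p = 0.00249). Scimp, an adaptor of Toll-like receptor signalling, was higher by 1.42 (adjusted p = 0.00359), Rasgrf1, which activates Ras, by 2.58 (adjusted p = 0.00717), Erc1, a scaffold protein of secretion, by 1.74 (adjusted p = 0.0021), and Htra3, a serine protease, by 1.71 (adjusted p = 0.016). Htra3 lost its call without PP replicate 4 (1.49, adjusted p = 0.0592) and was at 3.12 with day in the fit (adjusted p = 0.0505). Rasgrf1 reached 13.4 CPM in PBP replicate 5, the library with the highest neuron markers, against 2.49 to 7.59 CPM in the other PBP libraries, and was called without it (2.09, adjusted p = 0.037). Erc1 reached 21.3 CPM in PBP replicate 5 against 4.11 to 9.39 CPM in the other PBP libraries, and it was called without that library too (1.26, adjusted p = 0.00996). Hspa1a, an inducible heat shock protein that shares nearly all its sequence with Hspa1b, was at 0.127 to 0.6 CPM in PP and at 0.541, 19.9, 4.7, 1.97 and 0.777 CPM in PBP (3.83, SE 0.84, adjusted p = 0.0239). Replicate 2 alone carried its highest value, and the groups overlapped. Without that library the value was 2.36 and not called (adjusted p = 0.187), and the call was also lost without any 1 of the 5 PP libraries (adjusted p up to 0.0829).

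**Figure D3:**
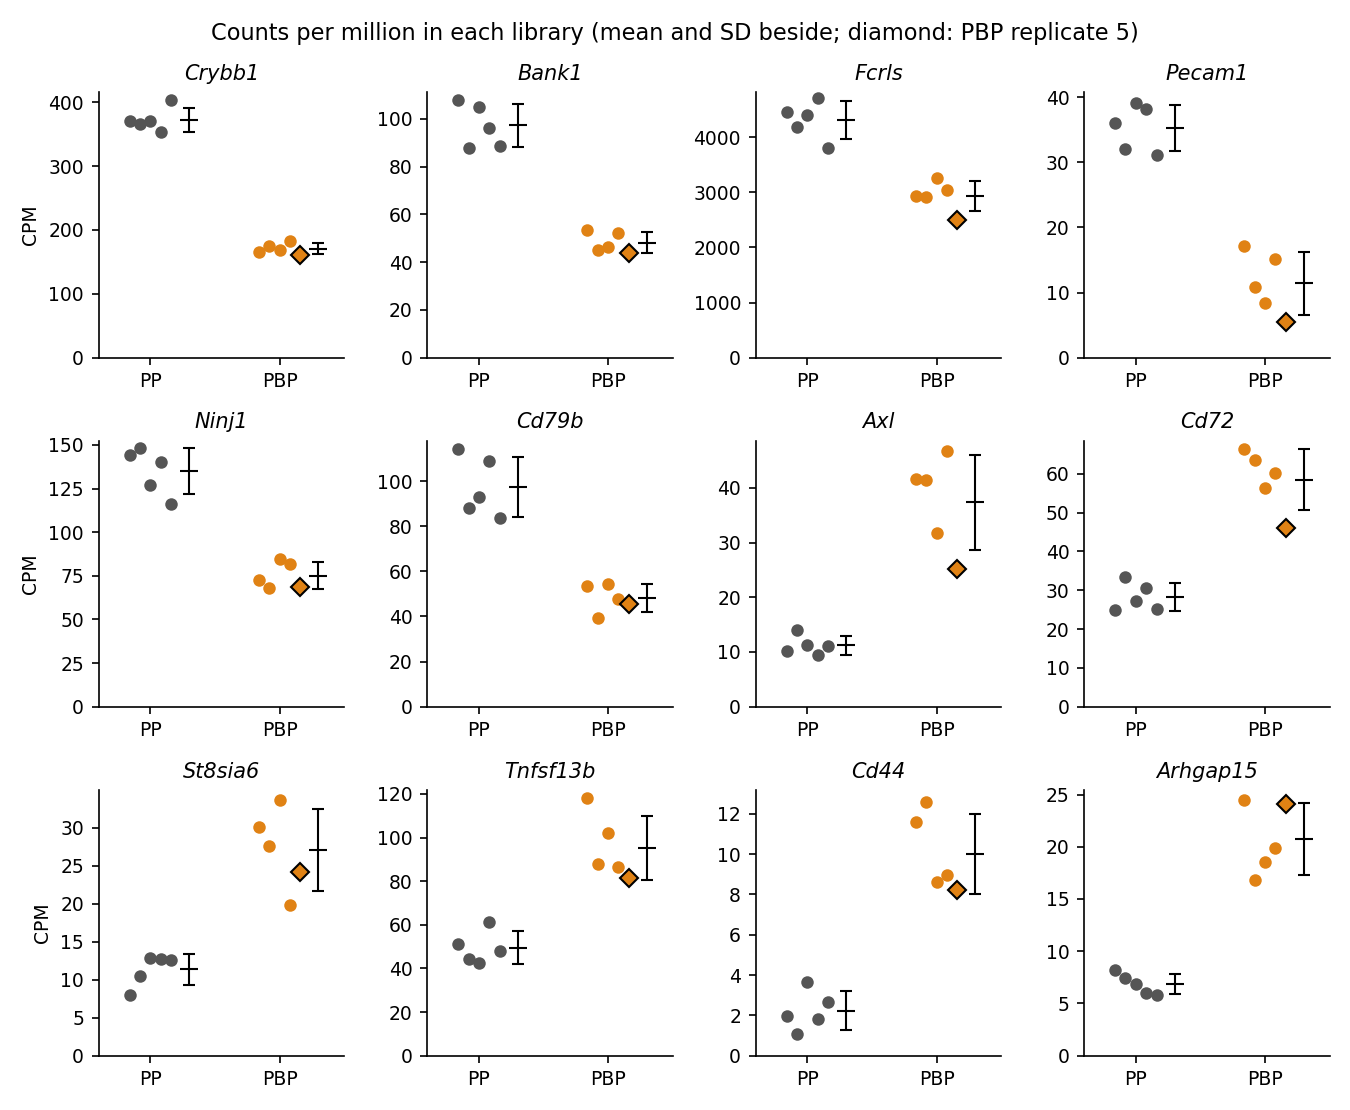
CPM of 12 called genes in each PP (grey) and PBP (orange) library, with the mean and SD beside the points and PBP replicate 5 as a diamond; each vertical axis starts at 0. In each of the 12 genes the PP and PBP libraries do not overlap, for example 353 to 404 against 161 to 183 CPM for Crybb1 and 9.47 to 14 against 25.2 to 46.7 CPM for Axl.

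Of 29 genes of disease-associated microglia, 2 were called higher (Axl and Fabp5) and 1 lower (Ccl6), with a median of 0. That is 6.9% and 3.45% of the list, against 0.289% and 0.241% of all genes. Fabp5, a fatty acid binding protein, was at 0 to 0.253 CPM in PP and 0.621 to 1.41 CPM in PBP (3.07, SE 0.56, adjusted p = 0.00291). Ccl6, a chemokine, was at 346 to 401 CPM in PP and 196 to 322 CPM in PBP (-0.46, SE 0.10, adjusted p = 0.0218), and was not called without PBP replicate 5 (-0.37, adjusted p = 0.07), nor without PP replicate 1 or 5 or PBP replicate 2 (adjusted p up to 0.07). Apoe, the lipid carrier induced in that state, was at 916 to 1430 CPM in PP and 783 to 1120 CPM in PBP (-0.20, SE 0.13, adjusted p = 0.567). Clec7a, the beta-glucan receptor dectin-1, was at 22.3 to 39.2 CPM in PP and 32.9 to 79.4 CPM in PBP (0.66, SE 0.22, adjusted p = 0.179). The ranges of both genes overlapped.

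Of 31 genes linked to brain macrophages derived from bone marrow or engrafted there, 2 were called higher (Axl and Fcgr4, 6.45%) and 1 lower (Mrc1, 3.23%). Of all genes 0.289% were called higher and 0.241% lower. The list's median was -0.44. Ms4a7, a membrane protein of such cells, was at 4.71, 5.8, 12.3, 9.11 and 10.1 CPM in PP and at 5.62, 2.44, 3.9, 4.11 and 4.5 CPM in PBP (-1.02, SE 0.37, adjusted p = 0.22). Ccr2, the chemokine receptor of inflammatory monocytes, was at 6.8 to 19.9 CPM in PP and 8.06 to 22.6 CPM in PBP (0.41, SE 0.38, adjusted p = 0.74). Lyz2, lysozyme of myeloid cells, was at 356 to 418 CPM in PP and 288 to 520 CPM in PBP (0.20, SE 0.12, adjusted p = 0.547).

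Interferon and inflammatory genes gave 3 calls. Of 40 interferon-stimulated genes, 1 was called higher (2.5%, against 0.289% of all genes), Ifi204, a DNA sensor of a family with closely related copies (1.15, SE 0.23, adjusted p = 0.00685), at 6.71 to 11.1 CPM in PP and 12.6 to 21.3 CPM in PBP. The list's median was 0.39, with 33 of 40 members above 0, against 9233 of the 16632 genes tested. Ifi209, a gene of the same family, was called higher too without PBP replicate 5 (1.19, adjusted p = 0.0478); it and the other genes below that were called only in that fit were named after their values were seen. Il6, the cytokine interleukin 6, was called higher at 10.1 to 18.3 CPM in PP and 18.5 to 25.5 CPM in PBP (0.59, SE 0.14, adjusted p = 0.0426), and not without PBP replicate 5 (0.58, adjusted p = 0.0762). Of the 10 fits without 1 library, it was called only in those without PP replicate 1 and PBP replicate 4 (adjusted p up to 0.111). Ccl6 and Il6 were the 2 calls among 26 cytokine and chemokine genes (7.69%, against 0.529% of all genes), with a median of 0.03, and 0 of the 26 were called without PBP replicate 5. The 27 genes of the NF-kB pathway gave no call, with a median of 0.27 and 23 members above 0. No call was made among 11 MHC class II genes, 18 MHC class I and immunoproteasome genes, 23 Toll-like receptor and adaptor genes or 19 genes of TGF-beta signalling, with medians of -0.03, 0.07, 0.04 and 0.02. The MHC class I gene H2-D1, which has near-identical copies (0.47, adjusted p = 0.00613), and Tlr3, a sensor of double-stranded RNA (0.45, adjusted p = 0.0459), were called higher without PBP replicate 5. Cd74, the invariant chain of MHC class II, was at 283 to 634 CPM in PP and 200 to 347 CPM in PBP (-0.44, SE 0.22, adjusted p = 0.438).

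Cell cycle genes were not called among the 36 tested, with a median of -0.23 and 9 members above 0, against 9233 of all 16632 genes tested. Their mean log2 CPM was 2.95 to 3.1 in PP and 2.44 to 2.83 in PBP, without overlap. Mki67, the proliferation marker Ki-67, was at 3.59, 3.24, 4.18, 4.68 and 2.39 CPM in PP and at 1.19, 0, 0.269, 1.61 and 1.24 CPM in PBP. The groups did not overlap, and the test did not call it (-2.02, SE 0.74, adjusted p = 0.23). Ccnb2, the mitotic cyclin B2, was called lower without PBP replicate 5 (-2.83, adjusted p = 0.0208). The lists of lysosomal genes (39), cholesterol genes (31), glycolysis and HIF1A targets (23), oxidative phosphorylation (33), immediate early genes (21), glucocorticoid-response genes (17) and histones (15) had no call, with medians between -0.16 and 0.08. Of the oxidative phosphorylation genes 2 of 33 were above 0, with the median of -0.16. The lysosomal protease gene Ctsh was called higher without PBP replicate 5 (0.40, adjusted p = 0.00942). Purinergic receptors and ectonucleotidases (17) had P2ry2 as the 1 call, heat shock and unfolded protein genes (26) Hspa1a, and complement and Fc receptor genes (20) Fcrls and Fcgr4. These calls are 5.88%, 3.85% and 10% of the lists, against 0.529% of all genes.

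Markers of border-associated macrophages, which live in the meninges and around vessels and can share the sorting gate, had mostly lower values in PBP. Of 15 tested, 2 were called lower (13.3%, against 0.241% of all genes) and none higher, with a median of -1.11, and 13 had a fold change below 0. Mrc1 (ENSMUSG00000026712, chromosome 2), the mannose receptor CD206, was at 19.2, 34.8, 39.7, 35.3 and 38.3 CPM in PP and at 11.0, 20.2, 13.7, 17.0 and 11.0 CPM in PBP. PP replicate 1 was the low library of its group and fell within the PBP range, and the log2 fold change was -1.19 (SE 0.27, adjusted p = 0.0277). Without PBP replicate 5 it was -1.11 (adjusted p = 0.0726). The call was lost in 7 of 10 fits without 1 library (adjusted p up to 0.0824), all but those without PP replicate 1 and PBP replicates 2 and 4. Cd209f, a C-type lectin, was at 1.75 to 5.4 CPM in PP and 0 to 1.08 CPM in PBP (-2.99, SE 0.62, adjusted p = 0.0117), and was not called without PBP replicate 2 (adjusted p = 0.0504). The summed level of the list was 361 to 525 CPM in PP and 296 to 426 CPM in PBP, and none of its markers was at 0 throughout. Stab1 held most of that sum, at 263 to 353 CPM in PP and 241 to 356 CPM in PBP, and the other 14 markers summed to 96.4 to 171 CPM in PP and 54.9 to 81.8 CPM in PBP, without overlap. In bulk samples, fewer cells of a type and less RNA per cell cannot be told apart.

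Markers of brain cells other than macrophages set PBP replicate 5 apart. The 12 tested neuron markers had a mean log2 CPM of 4.28 in that library, of 1.31 to 2.35 in the other PBP libraries and of 0.46 to 2.21 in PP, and their summed level was 949 CPM against at most 235 CPM in the other PBP libraries and 49.9 to 255 CPM in PP. All 12 had a fold change above 0, with a median of 1.54 that was 0.26 without replicate 5. The 1 neuron marker called was Stmn2, a tubulin-binding protein, at 0 to 1.51 CPM in PP and at 2.49, 1.93, 0.941, 0.447 and 8.08 CPM in PBP (2.60, adjusted p = 0.0468), and it was not called without that library (1.71, adjusted p = 0.292). In 6 more of the 10 fits without 1 library Stmn2 was not called, the exceptions being those without PP replicate 5 and PBP replicates 3 and 4. Astrocyte markers had a mean log2 CPM of 3.27 in it against 0.87 to 1.79 in the other 9 libraries, and red blood cell markers one of 3.4 against -1.83 to 0.61, with Slc4a1 and Car1 at 0. Monocyte markers (11 tested) lay between -0.07 and 0.92 in PP and between 0.24 and 0.82 in PBP, with no call. Oligodendrocyte (10) and neutrophil markers (8) gave no call either. In PBP replicates 1 to 4, Snap25 was the only tested neuron marker above all PP libraries, at 9.14 to 17.5 CPM against 2.11 to 8.69 CPM. Of the 48 called rises, 14 had a PP mean below 1 CPM, named here after their values were seen. Stmn2, Cdh7, Rap1gap, Syt7, Atcay, Tafa1, Eml1, Gdap1 and Fam13c had their highest PBP value in replicate 5 and were not called without it. Lgi1 and Neurod1 were also highest in that library and stayed called without it. Hspa1a, Fabp5 and P2ry2 had their highest PBP value in another library and stayed called without replicate 5. The part of other cells' RNA in single rises was not tested.

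**Figure D4:**
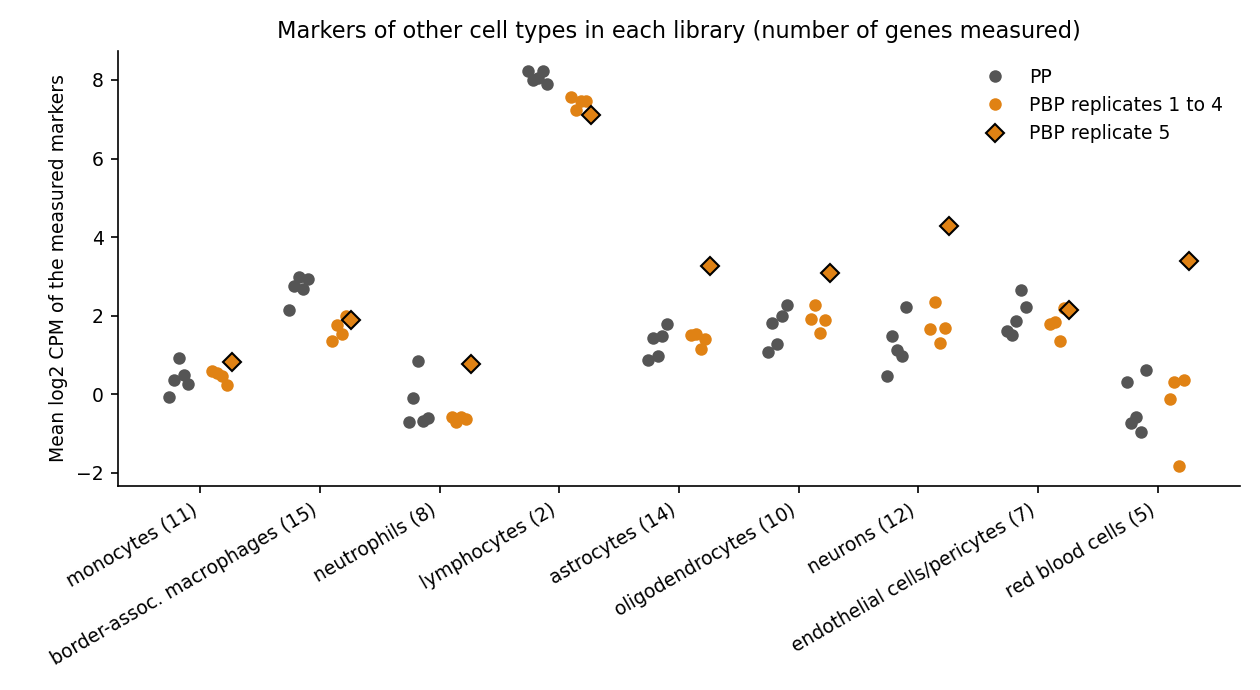
Mean log2 CPM (vertical axis) of the measured markers of 9 other cell types in each PP (grey) and PBP (orange) library, with PBP replicate 5 as a diamond. Neuron markers reach 4.28 in replicate 5 against at most 2.35 in the other libraries, and border-associated macrophage markers lie between 2.14 and 2.98 in PP and between 1.36 and 1.99 in PBP.

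The same contrast of repopulated against original cells exists in mice given 1 mg/kg LPS at both injections, LBL (BLZ945) against LL (vehicle), 5 libraries each. These share no library with PP and PBP, and all were sorted on the XDP. Sorting day nearly coincided with group here too, with 4 of the 5 LL libraries on day 2 and 4 of the 5 LBL libraries on day 1. There, 81 genes were called higher and 120 lower (0.487% and 0.722% of the genes, 1.21% together). Of the PBP rises 14 of 48 were also called higher in LBL (29.2% of the 48 and 17.3% of the 81), and of the falls 21 of 40 were also called lower (52.5% of the 40 and 17.5% of the 120). In direction, 47 of the 48 and 39 of the 40 had the same sign, as did 64.9% of all genes tested. Their median log2 fold changes there were 0.69 and -0.62. In the fit without PBP replicate 5, LBL against LL had 110 genes called higher and 266 lower (0.665% and 1.61% of the genes). Of the PBP calls in that fit, 18 of 38 rises and 16 of 28 falls were shared. That is 16.4% of the 110 and 6.02% of the 266.

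The genes called in both pairs of groups include Crybb1, Bank1 and Axl, the 3 with the smallest p-values in PBP against PP. Crybb1 was at 283 to 426 CPM in LL and 135 to 191 CPM in LBL, a log2 difference of -1.15 (SE 0.105, adjusted p = 1.62e-08) beside -1.13 without LPS. Axl was at 7.19 to 10.7 CPM in LL and 23 to 53.2 CPM in LBL (2.03, adjusted p = 6.75e-06), and Cd72 (0.98), Tnfsf13b (0.77), St8sia6 (1.22), Arhgap15 (1.54), Hcar2 (1.17) and Htra3 (2.27) were called higher there too. Among the falls Bank1 (-1.08), Cd79b (-1.44), Pecam1 (-1.82), Npl (-1.12), Fcrls (-0.51), Ecscr (-0.57), Mrc1 (-1.81) and Cd209f (-3.70) were called in LBL against LL. Slamf1 (-0.46, adjusted p = 0.126), Ptger3 (-1.90, adjusted p = 0.112), Cd44 (1.1, adjusted p = 0.17) and Fabp5 (0.85, adjusted p = 0.3) were not called there. A test of the difference between the 2 contrasts called 0 genes with edgeR, with 692 at an unadjusted p under 0.05 and a smallest adjusted p of 0.775, and 0 with DESeq2 and with limma voom, so none of these genes was shown to differ between them. Nor were they shown to be equal: 20 of the 48 rises and 8 of the 40 falls were among the 692. These genes were chosen by their values in PBP against PP, which enter that test, so these counts decide nothing. Of border-associated macrophage markers 7 of 15 were called lower in LBL, against 0.722% of all genes.

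**Figure D5:**
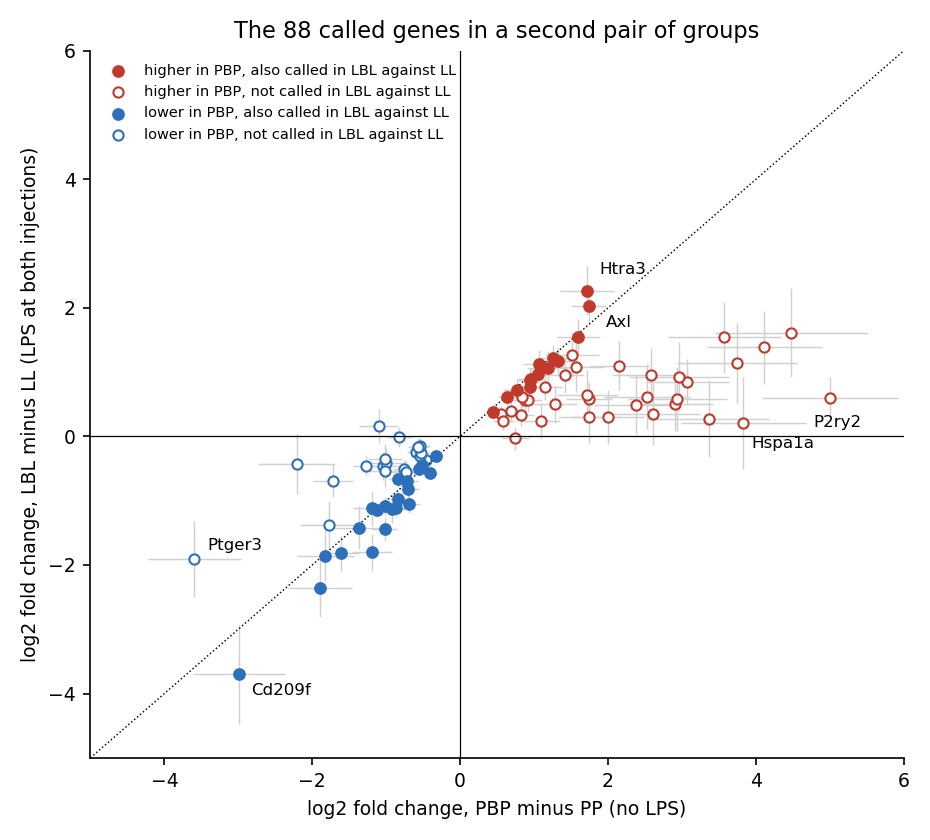
Log2 fold change of the 88 called genes in PBP minus PP (horizontal axis) and in LBL minus LL (vertical axis), with SE bars; filled points were also called in LBL against LL and the dotted line marks equal values. Filled points, 14 rises and 21 falls, lie near the line, and many open rises with large values in PBP lie below it. The fold change of P2ry2, with 0 counts in PP, depends on the prior count.

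In mice given LPS only at the second injection, PBL (BLZ945, n = 5) against PL (vehicle, n = 4), 1828 genes were called higher and 1845 lower (11% and 11.1%, 22.1% together). The groups were sorted on different instruments there, PBL on the XDP and PL on the Astrios, so sorter and depletion cannot be told apart. Of the PBP calls 33 rises and 29 falls were called in the same direction, and 11 rises and 21 falls were called in all 3 contrasts. Crybb1 was at 321 to 437 CPM in PL and 153 to 192 CPM in PBL (-1.19, SE 0.11, adjusted p = 2.53e-08). Over the 3 contrasts each vehicle library was at 283 CPM of Crybb1 or more and each BLZ945 library at 192 CPM or less. The difference between this contrast and PBP against PP gave 0 calls with edgeR (2120 genes at an unadjusted p under 0.05) and with limma voom, 17 higher and 46 lower with DESeq2, and 310 higher and 430 lower (1.88% and 2.6%) with edgeR without PBP replicate 5.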

How the data were processed

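The authors deposited raw counts of reads per gene, without normalization. The submitters' processing notes name FastQC 0.11.9, cutadapt 2.10, TopHat, SAMtools 1.10, Picard 2.13.2, HTSeq 0.11.0 and GRCm39, and since annotation release and strand setting were not given in these sources, values of overlapping antisense genes and near-identical copies are uncertain. The deposited sample table gives RNA quality score, RNA concentration and sorting date as the authors recorded them, and the dates were numbered here in order.

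The test was edgeR's (4.0.16, under R 4.3.3). Its filterByExpr at its defaults (minimum count 10) left 16632 of 36982 genes, scaling was by TMM, and a robust quasi-likelihood model was fitted to all 29 libraries with 1 coefficient for each of 6 groups (23 residual degrees of freedom, common biological coefficient of variation 0.26). P-values were adjusted by Benjamini-Hochberg over all genes. CPM use TMM-scaled sizes, and list levels are mean log2 CPM (prior count 2). A gene with 3 counts over a group is at 0.0756 CPM in PP and 0.0713 CPM in PBP, a limit that covers counting error only. No pair of libraries of a group agreed within sampling noise. The script was checked on simulated counts.

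Named genes were the 12 largest rises and 12 deepest falls called with and without PBP replicate 5, with a symbol that is not a predicted-gene name and a group mean of at least 5 CPM, up to 4 called members of each list, and genes named whatever their result, of which 1 is not reported here. The members and lists were chosen with earlier results of these data known. Alternatives were DESeq2 1.42.0, limma 3.58.1 voom, other scaling and filters, sorter, day or replicate number in the fit, fewer libraries, and leaving out each replicate.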

Additional observations from a re-analysis of the deposited data

Results flagged for a closer look

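Single libraries stood apart from the other 4 of their group in 13 of the 120 groups of values examined, by the gap to the nearest library relative to the group's range. Chance alone gives about 1 in 20 for independent, normally distributed values. The values here come from the same libraries and some are near 0 CPM, so 13 of 120 cannot be judged by that rate. PBP replicate 5 accounted for 6 of the 13. It had the lowest P2ry12, 7460 CPM against 10500 to 11300 CPM in the other PBP libraries, and the lowest Apoe, 783 against 1050 to 1120 CPM. Its Stmn2 was the highest, 8.08 against 0.447 to 2.49 CPM. Its astrocyte markers had a mean log2 CPM of 3.27 against 1.16 to 1.53, and its neutrophil markers one of 0.77 against -0.7 to -0.57. The neutrophil value lay within the PP range of -0.72 to 0.84. Its RNA quality number was 7.4 against 8.8 to 9.

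The other flagged values belong to genes in single libraries. Hspa1a was at 19.9 CPM in PBP replicate 2 against 0.541 to 4.7 CPM in the other PBP libraries. Tmem44 was at 12.6 CPM in PBP replicate 4 against 2.96 to 4.82 CPM, and Slamf1 at 8.22 CPM in PBP replicate 1 against 4.17 to 5.19 CPM. In PP, Abcg3 was at 4.3 CPM in replicate 3 against 10.6 to 12 CPM, and Mrc1 at 19.2 CPM in replicate 1 against 34.8 to 39.7 CPM. PP replicate 5 had Cd74 at 634 CPM against 283 to 358 CPM and Stmn2 at 1.51 CPM against 0 to 0.27 CPM.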

How the results depend on the processing

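Between PP and PBP the counts of 48 higher and 40 lower genes became 31 and 32 when only these 10 libraries were fitted, 77 and 58 with the 4 Astrios PBP libraries and PP alone (chosen after seeing the data), 6 and 5 with sorting day in the fit, 184 and 92 with DESeq2, and 26 and 48 with limma voom. The cause of these shifts was not tested. Leaving out each replicate in turn gave 25 to 65 higher and 24 to 44 lower: 25 and 24 without PP replicate 1, 31 and 25 without PP replicate 3, and 25 and 25 without PBP replicate 2. In all 10 of these fits 19 of the rises and 17 of the falls were called. RLE size factors and either filter on low counts left both counts within 1.5 times. Sorter in the fit gave 38 and 28, the same counts as without PBP replicate 5. PBP was the only group with libraries on both sorters, so the sorter term rests on PBP replicate 5 against the other PBP libraries. It is therefore no check apart from leaving that library out. Sall1, which was not called, turned from -0.06 to 0.55 with day in the fit. For LBL against LL (81 and 120), DESeq2 gave 186 and 244, and no filter on low counts gave 64 lower. Leaving out each LL or LBL replicate gave 36 to 120 and 49 to 164, the lowest without LL replicate 4. Leaving out PBP replicate 5, which is outside this contrast but in the fit, gave 110 and 266. For PBL against PL (1828 and 1845), leaving out each PL or PBL replicate gave 1060 to 2082 and 1123 to 2138. Leaving out PBP replicate 5, outside this contrast too, gave 2074 and 2315. The difference between PBL minus PL and PBP minus PP, with 0 calls, gave 1 higher with RLE factors, 5 and 6 without a filter, 17 and 46 with DESeq2, and up to 310 and 430 without PBP replicate 5. The difference to LBL minus LL gave 0 in all settings run. Whether the replicate numbers pair the libraries was not settled. Same-numbered PP and PBP libraries had deviations correlated at 0.179, 0.0285, -0.013, 0.0198 and 0.29. PP replicates 1 and 5 correlated best with their same-numbered PBP library, and PP replicates 2, 3 and 4 with another. With the replicate block 54 genes were called higher and 48 lower. The block gave 182 lower in LBL against LL and 2 higher in the difference to PBL minus PL. At totals of 5745164 to 11198323 counts, genes near 0.0756 CPM cannot be told from absent, which limits Fabp5, P2ry2 and Cd209f.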

Other observations

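Several called genes outside the lists and the naming rule were picked out after their values were seen. Mgll, the lipase that degrades the endocannabinoid 2-arachidonoylglycerol, was at 63.9 to 83 CPM in PP and 38.1 to 51.9 CPM in PBP (-0.72, SE 0.14, adjusted p = 0.00748 with edgeR), and at -0.70 in LBL against LL (adjusted p = 0.0076). Serpinf1, which encodes the secreted factor PEDF, was at 70.1 to 103 CPM in PP and 38.7 to 59.8 CPM in PBP (-0.84, adjusted p = 0.000336), at -0.98 in LBL against LL (adjusted p = 2.93e-05) and at -0.31 with sorting day in the fit (adjusted p = 0.632). Idh2, the mitochondrial isocitrate dehydrogenase, had a log2 difference of -0.70 (adjusted p = 0.00717) and Renbp, an epimerase of amino sugars, one of -0.52 (adjusted p = 0.0182), and both were called lower in LBL too. Actg1, cytoplasmic gamma actin, had one of -0.60 (adjusted p = 0.00717) and Cfl1, the actin-severing protein cofilin, one of -0.32 (adjusted p = 0.0426). Cfl1 was called lower in LBL against LL (-0.30, adjusted p = 0.0382) and Actg1 was not (-0.24, adjusted p = 0.364). With day in the fit Actg1 was at -0.09 (adjusted p = 0.915) and Cfl1 at -0.20 (adjusted p = 0.625). Without PBP replicate 5 Renbp (adjusted p = 0.0693) and Cfl1 (0.131) were not called.

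Among the rises Igfbp4, a binding protein of insulin-like growth factors, was at 13.1 to 19.1 CPM in PP and 27.4 to 35.7 CPM in PBP (0.94, SE 0.16, adjusted p = 0.00162), and at 0.88 in LBL against LL (adjusted p = 0.00286). Gpr35, a G-protein-coupled receptor, was higher by 0.76 (adjusted p = 0.0426) and Bcl2a1a, an anti-apoptotic gene with near-identical copies, by 0.64 (adjusted p = 0.00717). Both were called in LBL against LL, at 0.73 and 0.61. Neurod1, a transcription factor of neurons, was at 0.12 to 0.633 CPM in PP and at 1.73, 3.47, 1.61, 0.805 and 5.44 CPM in PBP (2.90, adjusted p = 0.00254). It was called without PBP replicate 5 (2.45, adjusted p = 0.013) and not in LBL against LL (0.50, adjusted p = 0.682). With day in the fit Neurod1 was at 1.59 (adjusted p = 0.562), and Gpr35 at 1.29 (adjusted p = 0.0956).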
